A study of Arabidopsis thaliana with 8 samples.

Results

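Mature median nectaries (MMN) and immature lateral nectaries (ILN) lie at opposite ends of this study in both position and age. The members were the 2 arrays whose titles give median nectaries of flowers at stages 14 to 15 and the 3 whose titles give lateral nectaries of flowers at stages 11 to 12, 5 of the 8 arrays in all. Each array held RNA from a pool of about 250 to 300 nectaries, dissected by hand from primary inflorescences of untreated Columbia-0 plants about 30 to 35 days old, 4 to 8 h after dawn under 16 h of light and 8 h of dark. ILN were described by the study as not yet secreting and MMN as secreting little or no nectar. No immature median nectaries were measured, so position and stage cannot be told apart in MMN against ILN, and neither can the RNA that entered labelling, 250 ng for MMN and 500 ng for ILN. The 3 arrays of mature lateral nectaries (MLN, stages 14 to 15, 500 ng) shared the stage with MMN and the position with ILN, and their values stand beside those of single genes. All signals below are linear array signals with a median near 100 on each array, and a gene is called where limma's Benjamini-Hochberg adjusted p over all 22746 probe sets was under 0.05.

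Floral nectaries are small glands at the base of the stamens. In Arabidopsis their formation requires CRC, a YABBY transcription factor, and sugar for nectar is drawn from phloem and from starch stored before the flower opens, rebuilt as sucrose, exported by SWEET9 and split outside the cell by the wall invertase cwINV4. The lateral pair lies outside the short stamens and yields nearly all of the nectar, while the median pair lies between the long stamens and has little phloem. During stages 11 to 12 the gland is still growing, and by stages 14 to 15 the flower is open and pollen is being shed.

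At an adjusted p under 0.05, 4284 of 22746 probe sets (18.8%) differed between MMN and ILN, 2268 (9.97%) of them higher in MMN and 2016 (8.86%) lower. With a fold of at least 2 these were 1326 (5.83%) and 1383 (6.08%), and with a fold of at least 5 they were 275 and 141. The rises reached further, with 43 probe sets up by 20-fold or more and 1 down by as much. A single locus could be assigned to 819 of the 1326 rises and 872 of the 1383 falls. The median log2 difference over all probe sets was 0.11. All MMN arrays lay on one side of all ILN arrays for 50.8% of probe sets. The count at 2-fold fell from 2709 to 1715 without MMN 2, and to 253 where the t-test named in the methods was run with Benjamini-Hochberg adjustment.

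Replicate arrays were not equally alike. Between the MMN arrays 34 probe sets differed by 4-fold or more, and all 34 were higher on MMN 2, while pairs of MLN arrays differed for 7, 30 and 38 probe sets. Among the 19 of them with 1 locus were the cold and dehydration genes LTI30, a dehydrin, with 108 and 3445 on MMN 1 and MMN 2, and COR15A, a chloroplast protein of cold tolerance, with 1241 and 6847. PLIM2a, an actin-binding LIM protein of pollen, had 37.1 and 215, against 29.7, 33 and 24.3 on the ILN arrays and 65.4, 69.5 and 46.6 on the MLN arrays. It was 1 of 8 measured genes of a list of 40 mature pollen genes written after these values had been seen. The signals of the 8 summed to 547 on MMN 1, 736 on MMN 2, 401 to 458 on the ILN arrays and 489 to 594 on the MLN arrays. Of the 8, 1 was called, AGL104 (higher in MMN, log2 difference 0.89, limma adjusted p = 0.0284), beside 9.97% of all probe sets. It stayed under the array median, with 39.2 and 41.3 in MMN and 20.6, 24.7 and 20.2 in ILN. The pollen receptor kinase genes ANX1 and ANX2 stayed near the low end of every array, at 15.4 to 26.3. Most of the 19 genes lay outside these 8, so the sum does not cover them. Among them, MMN 1 and MMN 2 read 18.9 and 301 for At3g07820, 23.0 and 184 for At5g07430, 91.5 and 624 for At1g10770 and 79.0 and 340 for At3g01270. These genes were not called between MMN and ILN, and whether they mark pollen was not tested. The part of other cells in the MMN 2 values was not tested.

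**Figure D1:**
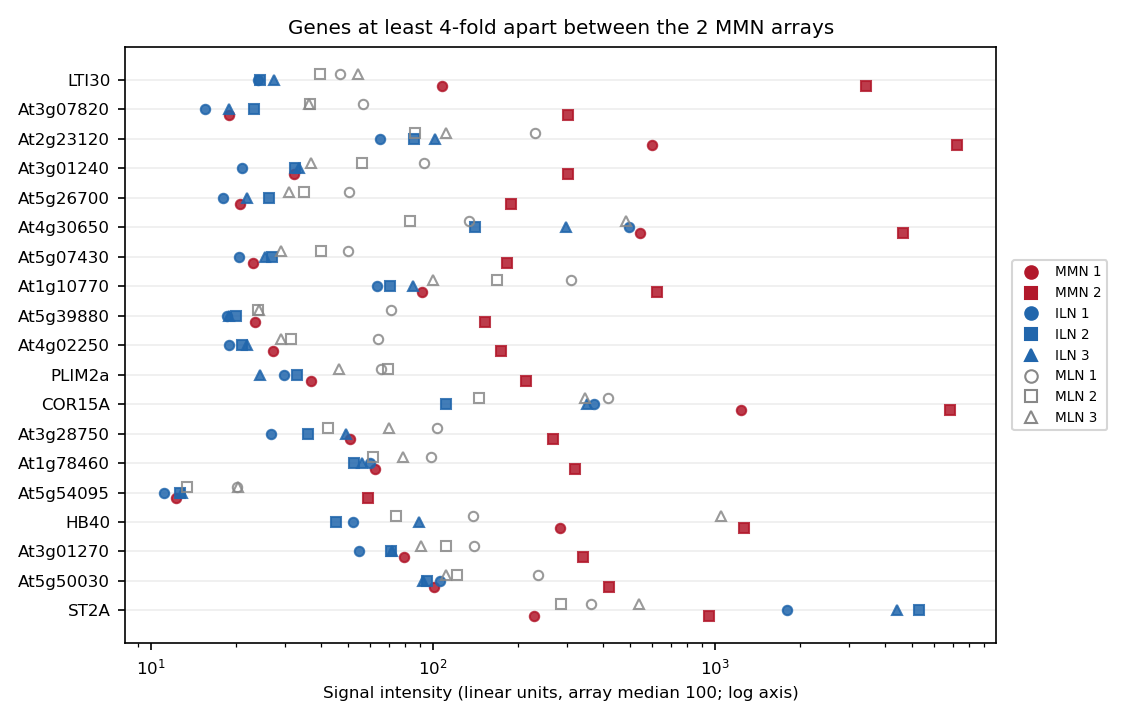
Signals on all 8 arrays, on a log axis, for the 19 genes with 1 locus whose MMN arrays differed by 4-fold or more. Each marker is 1 array, the groups are offset vertically for clarity, and on every row the red square (MMN 2) lies to the right of the red circle (MMN 1). The gene LTI30 shows the widest gap, 108 and 3445.

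Among the ILN arrays, ILN 1 and ILN 3 lay furthest apart, with 152 probe sets at 4-fold or more, 125 of them higher on ILN 3. Arrays ILN 2 and ILN 3 differed this far for 7. Of the 1383 probe sets called lower in MMN at 2-fold, ILN 1 was the lowest of the ILN arrays for 1004 (72.6%) and ILN 3 the highest for 981 (70.9%), so that the falls were usually smallest against ILN 1. Without ILN 1 the falls at 2-fold numbered 1757 and the rises 1374. Of the 1326 rises, ILN 3 was the lowest of the ILN arrays for 646 (48.7%). The labels give the ILN pools 1 range of stages and no finer age.

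The steepest rise belonged to At1g74820, a gene of the cupin family of small barrel proteins, with signals of 11902 and 12038 on the MMN arrays and 97.8, 46.6 and 73.4 on the ILN arrays. That is 172-fold (log2 difference 7.43, standard error 0.29, limma adjusted p = 1.43e-07), and in MLN the same probe set read only 219.9, 156 and 173. Second was At1g20070, annotated only as an expressed protein, with 8663 and 9074 on the MMN arrays and 53.2, 45.8 and 61.8 on the ILN arrays (log2 difference 7.38, standard error 0.22, limma adjusted p = 2.05e-08). CYP71B31, a cytochrome P450, went from 15.5, 21.4 and 18 in ILN to 2593 and 2371 in MMN (log2 difference 7.10, standard error 0.22, limma adjusted p = 2.05e-08). In MLN the CYP71B31 probe set read 1351, 1326 and 1026, and it was not called between MMN and MLN (limma adjusted p = 0.0786). All 3 had ILN signals at or under the array median and MMN signals far above it. In such pooled tissue, fewer cells of a type and less RNA per cell cannot be told apart.

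XTH24, a xyloglucan endotransglucosylase that cuts and rejoins wall polymers, had 4729 and 4486 in MMN against 32.5, 111 and 50.2 in ILN (log2 difference 6.35, standard error 0.40, limma adjusted p = 3.5e-06). GPAT5, an acyltransferase of suberin synthesis, had 4859 and 4436 in MMN against 72.7, 140.2 and 40.6 in ILN (log2 difference 5.96, standard error 0.39, limma adjusted p = 4.34e-06), and CDEF1, an esterase that can break down cutin, had 1844 and 1689 in MMN against 44.5, 36.6 and 26.1 in ILN (log2 difference 5.66, standard error 0.32, limma adjusted p = 1.88e-06). None of the 3 genes was called between MMN and MLN, whose arrays read 5259, 3926 and 3657 for XTH24, 6206, 7421 and 5687 for GPAT5 and 1316, 2394 and 2743 for CDEF1. The log2 differences MMN minus MLN had 95% intervals of -0.76 to 1.0, -1.32 to 0.40 and -0.92 to 0.48.

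LEA7, of the late embryogenesis abundant proteins that build up in drying tissue, had 3070.2 and 5342 in MMN against 31.3, 37.7 and 39.4 in ILN (log2 difference 6.81, standard error 0.38, limma adjusted p = 1.88e-06), with 1045, 722 and 370.1 in MLN. MYB115, a myb transcription factor, had 2263 and 1847 in MMN against 54.3, 27.1 and 26.5 in ILN (log2 difference 5.91, standard error 0.38, limma adjusted p = 3.5e-06). WES1, a GH3 enzyme that conjugates auxin to amino acids, had 3972 and 3486 in MMN against 96.2, 76.9 and 63.9 in ILN (log2 difference 5.58, standard error 0.22, limma adjusted p = 1.43e-07). The remaining members of the 12 largest rises were At5g14940, of the proton-dependent oligopeptide transporter family, with 7011 and 4904 in MMN against 132, 122 and 77 in ILN, At1g35190, of the 2OG-Fe(II) oxygenase family, with 3151 and 2719.9 in MMN against 60.4, 43.3 and 29.7 in ILN, and scpl41, a serine carboxypeptidase-like gene, with 1464 and 1638 in MMN against 44.2, 27.4 and 23.1 in ILN. Their log2 differences were 5.77, 6.10 and 5.67 (limma adjusted p = 1.68e-06, 4.76e-07 and 1.94e-06). At5g14940 was also called higher in MMN than in MLN, by 3.11 on the log2 scale. For scpl41, MLN read 1829, 1888 and 3420, and it was not called between MMN and MLN. The rule that chose the 12 required arrays that did not overlap, and in each the lowest MMN array lay at least 31.6-fold above the highest ILN array, and none of these calls was lost in any alternative fitted with limma.

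**Figure D2:**
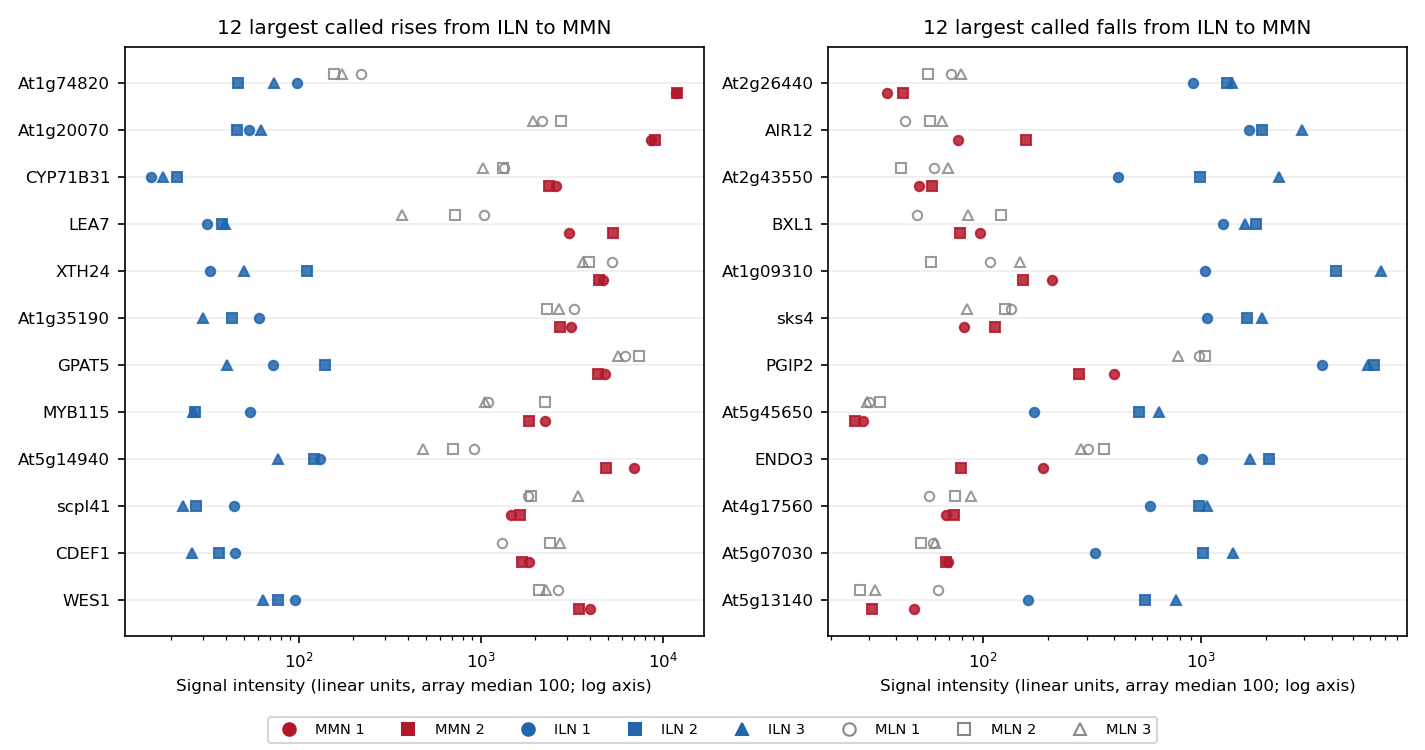
Signals on all 8 arrays, on a log axis, for the 12 genes that rose most and the 12 that fell most from ILN to MMN. Only called probe sets with 1 locus were ranked. Each marker is 1 array and its shape gives the replicate number. Red MMN and blue ILN markers do not overlap on any row, as the rule that chose the genes required, with the steepest rise at a log2 difference of 7.43 and the steepest fall at -4.92.

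The largest falls included genes that act on the cell wall. At2g26440, of the pectinesterase family that removes methyl groups from pectin, fell from 921, 1324 and 1392 on the ILN arrays to 36.2 and 43 on the MMN arrays, which is 30.2-fold (log2 difference -4.92, standard error 0.25, limma adjusted p = 1.37e-06). BXL1, a beta-xylosidase that trims wall polysaccharides, fell from 1267, 1798 and 1607 to 97 and 78.5 (log2 difference -4.14, standard error 0.33, limma adjusted p = 1.48e-05). PGIP2, an inhibitor of pectin-cutting polygalacturonases, fell from 3619, 6288 and 5871 to 401 and 276 (log2 difference -3.94, standard error 0.27, limma adjusted p = 5.92e-06).

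AIR12, a membrane cytochrome first found among auxin-induced genes, fell from 1677, 1908 and 2909 to 77.2 and 158 (log2 difference -4.25, standard error 0.33, limma adjusted p = 1.37e-05). Signals of sks4, of the SKU5-similar family of multicopper oxidase-like proteins, were 81.7 and 113 in MMN against 1071, 1626 and 1916 in ILN (log2 difference -3.96, standard error 0.30, limma adjusted p = 1.11e-05). ENDO3, an endonuclease, had 188 and 79.3 in MMN against 1017, 2067 and 1684 in ILN (log2 difference -3.64, standard error 0.37, limma adjusted p = 7.42e-05). At5g45650, of the subtilase family of proteases, had 28.2 and 25.7 in MMN against 172, 519 and 644 in ILN (log2 difference -3.84, limma adjusted p = 0.000172). Several falls had widely spread ILN arrays, with ILN 1 lowest and ILN 3 highest. At1g09310, which the sources used here leave without annotation, had 1043, 4170.3 and 6719 on ILN 1, ILN 2 and ILN 3 and 209 and 153 in MMN (log2 difference -4.11, standard error 0.63, limma adjusted p = 0.00112). At2g43550 and At5g07030, also without annotation, and At5g13140, an expressed protein, also had ILN 1 lowest and ILN 3 highest, with 416, 991 and 2303, with 328, 1025 and 1402 and with 161, 554 and 773 on the ILN arrays. Without ILN 1 the log2 difference was -4.89 for At1g09310, -4.79 for At2g43550, -4.13 for At5g07030 and -4.08 for At5g13140, and without ILN 3 it was -3.56 for At2g43550. That of ENDO3 was -4.26 without MMN 1 and -3.02 without MMN 2. For the 12 falls, chosen with the same condition of no overlap, the lowest ILN array was at least 3.32-fold above the highest MMN array.

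Pathways and tissues were then followed through 29 gene lists, of which 26 had a member with a probe set of its own. Of 182 measured members, 47 were called higher and 22 lower in MMN. Without the 40 members whose probe sets were named only by tables that the study selected on these arrays, and which are therefore not independent evidence of a direction, 27 of 142 were higher and 10 lower. Over all probe sets 9.97% were higher and 8.86% lower, and every list count below is to be read beside these shares.

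**Figure D3:**
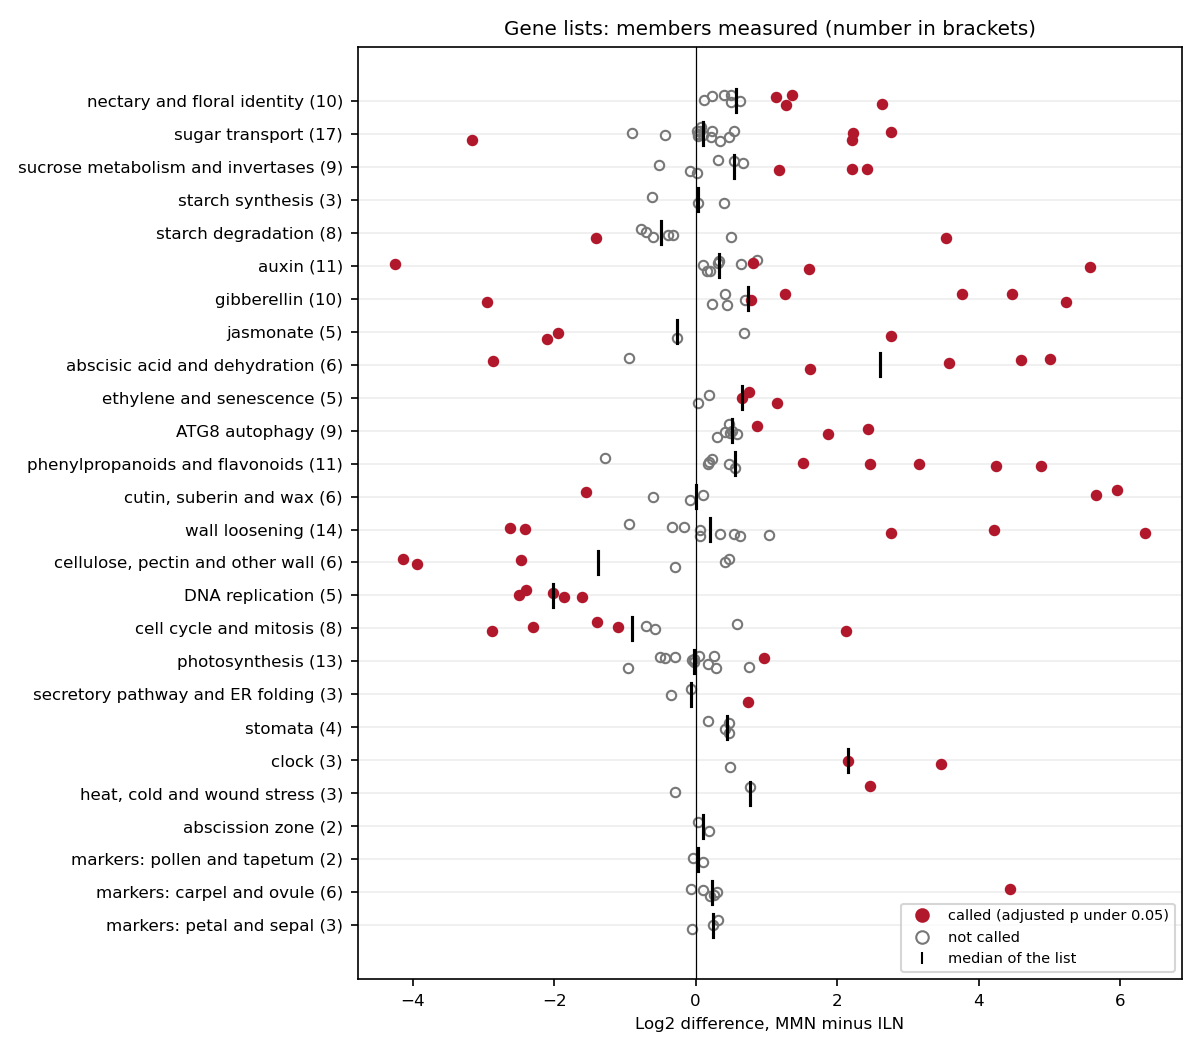
Log2 difference MMN minus ILN for each measured member of the gene lists. Filled points are members called at an adjusted p under 0.05, and the short bars are list medians. All 5 DNA replication genes lie to the left, with a median of -2.02, and the abscisic acid and dehydration genes have a median of 2.60, which is 1.89 without MMN 2.

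Both kinds of gland carried the genes that mark a nectary. CRC read 13214 and 16636 on the MMN arrays and 10098, 10705 and 10565 on the ILN arrays (log2 difference 0.50, limma adjusted p = 0.206), the sugar exporter gene SWEET9 15638 and 12764 on the MMN arrays and 16897, 14229 and 10236 on the ILN arrays (log2 difference 0.07, limma adjusted p = 0.882), and the wall invertase gene cwINV4 10807 and 11856 on the MMN arrays and 13661, 11359 and 11041 on the ILN arrays (log2 difference -0.08, limma adjusted p = 0.816). The 95% intervals of these log2 differences were -0.06 to 1.07, -0.45 to 0.58 and -0.50 to 0.34. PIN6, an auxin transporter of nectaries, had 12734 and 10884 in MMN against 10489.6, 5645 and 4496 in ILN (log2 difference 0.87, limma adjusted p = 0.0743), its ILN 1 value lying beside those of MMN. YAB5, a YABBY gene related to CRC, had 5802 and 6318 in MMN against 5921, 3882 and 2587 in ILN (log2 difference 0.63, limma adjusted p = 0.162), with ILN 1 inside the MMN range. None of these 5 genes was called on all arrays, but without ILN 1 both PIN6 (log2 difference 1.23, adjusted p = 0.00183) and YAB5 (log2 difference 0.93, adjusted p = 0.0133) were called higher in MMN.

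Among the 10 measured genes of the nectary and floral identity list 4 rose and none fell, with a median of 0.57 against 0.11 over all probe sets. Without those the study had chosen 2 of 6 rose. KNAT6, a homeobox gene of meristems and organ boundaries, rose from 85.2, 152 and 137 to 710.1 and 796 (log2 difference 2.63, standard error 0.33, limma adjusted p = 0.000284), with 630.2, 368 and 309 in MLN. The MADS-box gene SHP2, which specifies carpel tissue and acts in nectary formation, had 7890.5 and 5921 in MMN against 2448, 3700.4 and 3328 in ILN (log2 difference 1.14, limma adjusted p = 0.00471). SEP1, another MADS-box gene, and AP2, which specifies sepals and petals, rose by 1.27 and 1.37 on the log2 scale (limma adjusted p = 0.00161 and 0.00166). The call of SHP2 was lost without MMN 1 (adjusted p = 0.0761). The KNOX gene STM read 5946 and 5638 in MMN against 4516, 4779.9 and 3929.6 in ILN (log2 difference 0.40, limma adjusted p = 0.173).

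Markers of neighbouring floral tissue were also read. Of 22 pollen and tapetum markers written 2 were measured, AMS and SPL. Both were uncalled, with summed signals of 66.2 to 70.5 in MMN and 56.8 to 90.5 in ILN. These 2 genes, under the array median in both groups, cannot show how much pollen the pools held. The 3 petal and sepal markers summed to 84.5 to 99.8 in MMN and 75.7 to 86.5 in ILN. The 6 carpel and ovule markers summed to 1070.4 to 1179 in MMN against 385 to 536 in ILN, and only NGA1 among them was called. NGA1, a B3 transcription factor of style and stigma growth, had 792 and 503 in MMN against 41.4, 26.4 and 22.2 in ILN (log2 difference 4.45, standard error 0.31, limma adjusted p = 5.85e-06), and 36.3, 41.1 and 28.7 in MLN. The others, INO, SPT, NGA2, NGA3 and NGA4, were uncalled, at log2 differences of -0.07 to 0.30. No phloem or xylem marker of the lists had a probe set of its own, so vascular tissue was not analysed here. The part of carpel tissue in the MMN values was not tested.

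Sugar handling differed in single members. SWEET1, a glucose uniporter, rose from 270.2, 164 and 198 to 1959 and 996 (log2 difference 2.76, standard error 0.35, limma adjusted p = 0.00031), and SWEET8, a sugar transporter of anthers, fell from 743, 735 and 954 to 86.2 and 92.8 (log2 difference -3.17, standard error 0.22, limma adjusted p = 5.34e-06). SWEET4 read 313 and 525 in MMN against 128, 79.6 and 64.1 in ILN and STP13, a hexose importer, 4688 and 3875 in MMN against 1201, 836 and 774 in ILN, and both rose (log2 difference 2.22, limma adjusted p = 0.00069 and log2 difference 2.21, limma adjusted p = 0.00101). The other 13 of the 17 sugar transporter genes were not called, and the median of the list was 0.10. In sucrose metabolism 3 of 9 genes rose, and 2 of the 6 that the study had not chosen. SPS2F, a sucrose phosphate synthase, rose from 773, 1359 and 732 to 4551 and 3944 (log2 difference 2.21, standard error 0.26, limma adjusted p = 0.000225), whereas SPS1F had 3701 and 4151 in MMN against 2476, 3131 and 2498 in ILN (log2 difference 0.55, limma adjusted p = 0.114). UGE2, which converts UDP-glucose to UDP-galactose, had 2614 and 2718 in MMN against 482, 569 and 450.2 in ILN (log2 difference 2.42, limma adjusted p = 1.37e-05), and the sucrose synthase gene SUS1 had 10729.7 and 13941 in MMN against 6381, 5438 and 4585 in ILN (log2 difference 1.17, limma adjusted p = 0.00652, and 0.0962 without MMN 2).

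Of 8 genes of starch breakdown 1 rose and 1 fell, and of the 7 the study had not chosen 0 rose and 1 fell. These counts are close to the 9.97% higher and 8.86% lower over all probe sets. BAM1, a beta-amylase, read 6045 and 6243 on the MMN arrays and 307, 709 and 684 on the ILN arrays (log2 difference 3.53, standard error 0.33, limma adjusted p = 5.08e-05), and it was among the members the study had chosen. MEX1, the maltose exporter of the chloroplast, read 278 and 249 on the MMN arrays and 670.3, 623 and 806 on the ILN arrays (log2 difference -1.40, standard error 0.22, limma adjusted p = 0.00119). These single genes lay on opposite sides of ILN, with no overlap of arrays in either gene, as for 50.8% of all probe sets. The cytosolic enzyme DPE2, which takes up the maltose, had 527 and 571 in MMN against 748, 786 and 973 in ILN (log2 difference -0.60, limma adjusted p = 0.109). None of the 3 measured genes of starch synthesis was called, and APL3, a subunit of ADP-glucose pyrophosphorylase, had 196 and 157 in MMN against 211, 308 and 297 in ILN (log2 difference -0.61, limma adjusted p = 0.244).

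Gibberellin genes moved at both the making and the breaking of the hormone. GA20OX1, an enzyme of its synthesis, rose from 38.2, 55.8 and 37.6 to 1312 and 694 (log2 difference 4.47, standard error 0.36, limma adjusted p = 1.48e-05), with 80.3, 164 and 95.7 in MLN. GA20OX2, which carries out the same step, rose from 124, 104 and 51.8 to 1486 and 943 (log2 difference 3.76, standard error 0.37, limma adjusted p = 6.5e-05), with 1003, 773 and 571 in MLN. GA2OX6, which inactivates gibberellin, rose from 41.9, 43.7 and 46 to 1349 and 2006 (log2 difference 5.23, standard error 0.22, limma adjusted p = 1.66e-07), with 877, 973 and 842 in MLN. The repressor gene RGL1, a DELLA protein that gibberellin removes, fell from 480.1, 1297 and 1324 to 111 and 133 (log2 difference -2.95, standard error 0.40, limma adjusted p = 0.000518), with 120, 73.9 and 110 in MLN. In all, 5 of 10 gibberellin genes rose and 1 fell, with a median of 0.74, but of the 5 the study had not chosen only GA3 was called (log2 difference 0.78, limma adjusted p = 0.0316). The receptor genes GID1A, GID1B and GID1C were uncalled, at log2 differences of 0.69, 0.45 and 0.41.

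Of 11 auxin genes 3 rose and 1, AIR12, fell. AIR12 was among the genes the study had chosen, and of the 9 it had not chosen 3 rose and 0 fell. WES1, described above, led the rises, and its relative GH3.3 had 105 and 90.5 in MMN against 48.4, 50.9 and 71 in ILN (log2 difference 0.80, limma adjusted p = 0.0345). SLR, a repressor of auxin response also known as IAA14, had 415 and 257 in MMN against 115, 122 and 90.0 in ILN (log2 difference 1.60, limma adjusted p = 0.00596). The calls of both GH3.3 and SLR were lost without MMN 1 (adjusted p = 0.217 and 0.0881), and that of GH3.3 also without MMN 2 (0.112). The auxin synthesis genes YUC2, YUC4 and YUC6 were uncalled, at log2 differences of 0.64, 0.10 and 0.33.

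In the jasmonate group the flower MYB genes parted. MYB57 read 5423 and 5249 on the MMN arrays and 345, 1965 and 709 on the ILN arrays (log2 difference 2.77, standard error 0.53, limma adjusted p = 0.0039) and MYB24 793 and 1096 on the MMN arrays and 4972, 4037 and 3204 on the ILN arrays (log2 difference -2.1, standard error 0.47, limma adjusted p = 0.00939), both transcription factors of stamen maturation. For MYB57 the spread lay within ILN, where ILN 2 was several times ILN 1, and the log2 difference was 2.18 without ILN 1 and 3.43 without ILN 2. The call of MYB24 was lost without MMN 1 (adjusted p = 0.0912). JAZ7, a repressor of jasmonate response, had 83.6 and 104 in MMN against 251, 370.1 and 503 in ILN (log2 difference -1.95, limma adjusted p = 0.00267). JMT, which makes methyl jasmonate, had 1932 and 4763 in MMN against 4749.7, 2689 and 3826 in ILN (log2 difference -0.27, limma adjusted p = 0.659), and MLN read 14178, 12445 and 19214. The MMN and ILN arrays overlapped for JMT. All called genes here were among those the study had chosen.

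Dehydration and cold genes had a median log2 difference of 2.60 (1.89 without MMN 2), with 4 of 6 called higher and 1 lower, none of them chosen by the study. COR47, a dehydrin, rose from 394, 231 and 197 to 7518 and 9529, 32.3-fold (log2 difference 5.01, standard error 0.34, limma adjusted p = 5.04e-06), with 4397, 4425 and 8276 in MLN. ABA1, an enzyme of abscisic acid synthesis, had 5098 and 4685 in MMN against 1317, 1949.6 and 1555 in ILN (log2 difference 1.62, standard error 0.25, limma adjusted p = 0.00109). COR15A and LTI30 rose too, but with MMN arrays far apart. COR15A had 1241 and 6847 in MMN against 372, 111 and 351 in ILN (log2 difference 3.58, standard error 0.70, limma adjusted p = 0.00463), and without MMN 2 the call was lost (log2 difference 2.35, adjusted p = 0.0678; 4.81 without MMN 1). LTI30 had 108 and 3445 in MMN against 23.9, 24.4 and 27.4 in ILN (log2 difference 4.60, standard error 0.98, limma adjusted p = 0.00726), and without MMN 2 it remained called with a smaller difference (log2 difference 2.1, adjusted p = 0.00136; 7.09 without MMN 1). RD22, a dehydration gene, fell from 376, 1540.0 and 2680.5 to 174 and 145 (log2 difference -2.87, limma adjusted p = 0.0109), a call lost with either MMN array left out, and its log2 difference was -3.68 without ILN 1 and -2.26 without ILN 3. RAB18, another dehydrin, read 49.3 and 66.4 in MMN against 43.8, 124 and 243 in ILN (log2 difference -0.94, limma adjusted p = 0.251).

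Of 24 ethylene and senescence genes written 5 were measured, and 3 of these rose, beside 9.97% of all probe sets. PAO, an enzyme that opens the chlorophyll ring during leaf ageing, had 2145 and 2151 in MMN against 938, 1092 and 890.2 in ILN (log2 difference 1.15, standard error 0.22, limma adjusted p = 0.00371). EIN3, the transcription factor of ethylene response, and WRKY53, a regulator of leaf senescence, rose by 0.76 and 0.66 on the log2 scale (limma adjusted p = 0.0261 and 0.0386), and both calls were lost with either MMN array left out. Among the 9 ATG8 genes, whose proteins coat the vesicles of autophagy, ATG8H had 225 and 403 in MMN against 66.1, 58 and 44.7 in ILN (log2 difference 2.44, limma adjusted p = 0.000244), ATG8E 1334 and 1764 in MMN against 531, 460.4 and 306 in ILN (log2 difference 1.86, limma adjusted p = 0.0005) and ATG8C 1276 and 1205 in MMN against 746, 674 and 621 in ILN (log2 difference 0.87, limma adjusted p = 0.0085). The other 6 were uncalled, so that 3 of 9 rose beside 9.97% of all probe sets, and the median of the list was 0.51. The ATG8C call was lost with either MMN array left out.

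The entry to the phenylpropanoid pathway rose steeply. PAL1, PAL2 and PAL4 encode phenylalanine ammonia-lyases, which feed lignin, flavonoids and other phenolics. PAL1 rose from 65.3, 279 and 125 to 3385 and 4432 (log2 difference 4.88, standard error 0.45, limma adjusted p = 4.78e-05), PAL2 from 86.9, 137 and 160.1 to 2530.5 and 2207 (log2 difference 4.25, standard error 0.29, limma adjusted p = 5.04e-06) and PAL4 from 1257, 1626 and 632 to 10787 and 8833 (log2 difference 3.16, standard error 0.34, limma adjusted p = 0.00011). No array of either group overlapped for any of the 3, as for 50.8% of all probe sets. The study had chosen these PAL genes, but not the next ones. UGT78D2, which adds glucose to flavonoids, rose from 98.2, 129 and 169 to 819 and 612 (log2 difference 2.46, standard error 0.28, limma adjusted p = 0.00017), and HCT, an acyltransferase of lignin precursors, had 2950.4 and 1989.9 in MMN against 1271, 717 and 660.4 in ILN (log2 difference 1.52, limma adjusted p = 0.00392, and 0.0618 without MMN 1). Genes of the pigment branch were uncalled, with DFR and BAN at log2 differences of 0.17 and 0.23. Of 11 genes 5 rose and none fell, with a median of 0.56.

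In the cuticle list 2 of 6 genes rose, GPAT5 and CDEF1, and 1 fell, CER1, an enzyme of wax alkane synthesis, with 1228 and 1064 in MMN against 2342, 3904 and 4065 in ILN (log2 difference -1.55, limma adjusted p = 0.0129). All 3 had been chosen by the study, and CER1 was not called with either MMN array left out. Wall-loosening genes split by member. XTH4, related to XTH24, rose from 48, 63.9 and 53.3 to 375 and 368 (log2 difference 2.76, standard error 0.25, limma adjusted p = 3.54e-05). The expansin genes EXPA6 and EXPA15, whose proteins loosen growing walls, fell from 566, 945 and 978 to 157 and 108 (log2 difference -2.63, limma adjusted p = 0.000122) and from 490.0, 876 and 1419 to 178 and 141 (log2 difference -2.42, limma adjusted p = 0.000828). EXLA1, an expansin-like gene, rose from 128, 85.4 and 45.9 to 837 and 2633 (log2 difference 4.22, standard error 0.55, limma adjusted p = 0.000372), and the log2 difference was 5.05 without MMN 1 and 3.40 without MMN 2. The list of 14 had a median of 0.21, with 9 members uncalled. Of the 11 members the study had not chosen 1 rose and 1 fell, with a median of 0.07.

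Among 6 further wall genes 3 fell, BXL1, PGIP2 and the pectin methylesterase gene PME3, which read 167 and 98.3 in MMN against 498, 720.4 and 983 in ILN (log2 difference -2.46, limma adjusted p = 0.000284). These 3 were all chosen by the study and the median with them was -1.38, while the other 3, the cellulose synthase genes CESA6 and CESA7 and COB, which orients cellulose, were uncalled with a median of 0.41.

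Of 18 genes of DNA replication written 5 were measured. All of these fell, 5 of 5 beside 8.86% of all probe sets, with a median of -2.02. Both of the 2 that the study had not chosen fell too. Signals of the 5 summed to 513 to 551 on the MMN arrays, 1610 to 3706 on the ILN arrays and 402 to 504 on the MLN arrays. TSO2, a small subunit of ribonucleotide reductase, which makes the building blocks of DNA, fell from 878, 1281 and 1672 to 246 and 195 (log2 difference -2.49, standard error 0.28, limma adjusted p = 0.000156). RNR1, the large subunit, fell from 255, 637 and 836 to 93.6 and 102 (log2 difference -2.40, limma adjusted p = 0.00269). PCNA2, the sliding clamp of the polymerase, fell from 241, 417 and 608 to 96.6 and 98.1 (log2 difference -2.02, limma adjusted p = 0.00239). PRL, a subunit of the MCM helicase, and ICU2, the catalytic subunit of DNA polymerase alpha, fell by 1.86 and 1.60 on the log2 scale (limma adjusted p = 0.00519 and 0.00171). In all 5 ILN 1 was the lowest and ILN 3 the highest of the ILN arrays, and ILN 1 lay above both MMN arrays. This order was common, with ILN 1 lowest for 72.6% and ILN 3 highest for 70.9% of all falls at 2-fold. Arrays of MMN and ILN did not overlap for 50.8% of all probe sets.

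Of 8 cell cycle genes 4 fell and 1 rose. The study had chosen the 1 that rose, CYCD3;3, and of the other 7 genes 4 fell and 0 rose. CYCD3;2, a D-type cyclin that promotes division, had 122 and 138 in MMN against 345, 621 and 1214 in ILN (log2 difference -2.30, standard error 0.40, limma adjusted p = 0.00234), while its relative CYCD3;3 had 1817 and 1469.8 in MMN against 406, 364 and 361 in ILN (log2 difference 2.12, standard error 0.24, limma adjusted p = 0.000148), so the pair moved in opposite directions. SIM, an inhibitor of cyclin-dependent kinases, fell from 1524, 1715 and 978 to 156 and 219 (log2 difference -2.88, standard error 0.27, limma adjusted p = 5.09e-05). For SIM, unlike the replication genes, ILN 3 was the lowest of the ILN arrays. CYCD4;1 and the mitotic kinase gene AUR3 fell by 1.39 and 1.09 on the log2 scale (limma adjusted p = 0.00241 and 0.0357), and the call of AUR3 was lost with either MMN array left out. AUR1, of the same family, read 261 and 223 in MMN against 105, 165 and 239 in ILN (log2 difference 0.59, limma adjusted p = 0.215).

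**Figure D4:**
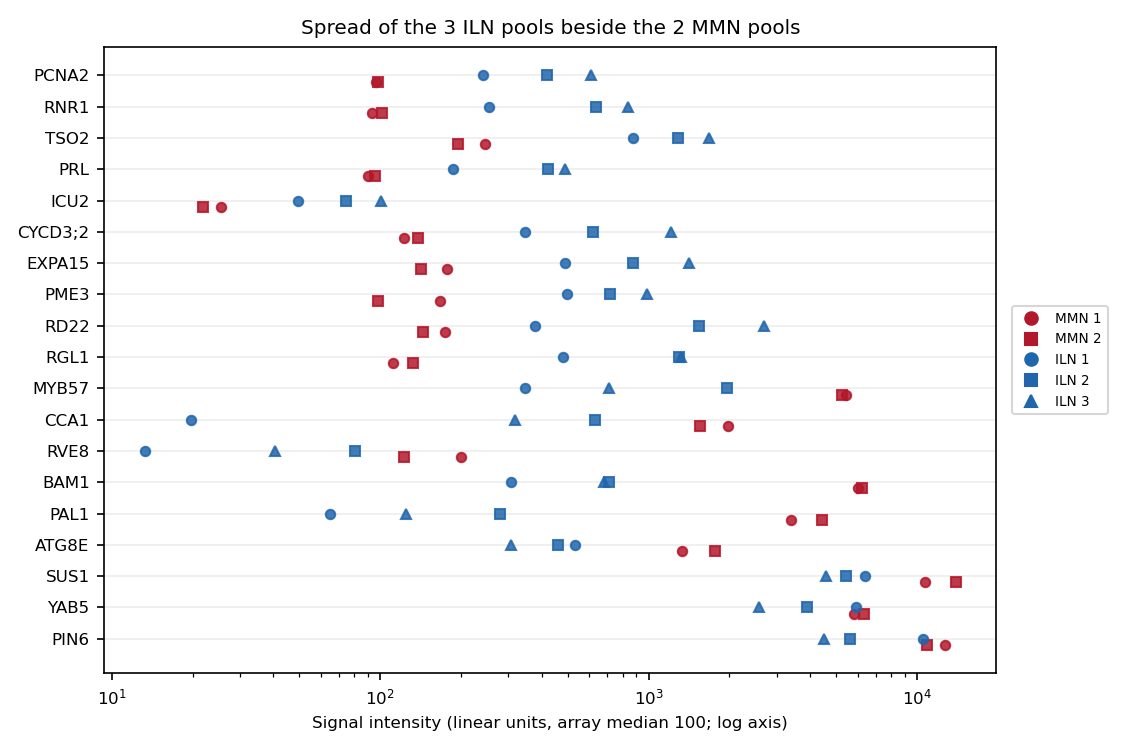
Signals on the 2 MMN and 3 ILN arrays, on a log axis, for selected named genes, most of them with widely spread ILN arrays. Each marker is 1 array and its shape gives the replicate number. For the replication genes ILN 1 is the lowest and ILN 3 the highest ILN marker, as in RNR1 with 255, 637 and 836, while for the clock gene CCA1 ILN 1 is far below the others, at 19.7. ILN 1 was the lowest ILN array for 72.6% of all falls at 2-fold.

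The morning clock genes CCA1 and RVE8 were called higher in MMN with very unequal ILN arrays. CCA1 had 1966 and 1554 in MMN against 19.7, 630.0 and 319 in ILN (log2 difference 3.47, standard error 1.05, limma adjusted p = 0.0401) and RVE8 had 199.8 and 123 in MMN against 13.3, 80.3 and 40.4 in ILN (log2 difference 2.16, standard error 0.57, limma adjusted p = 0.0208). Without ILN 1 the differences were smaller, for CCA1 (log2 difference 1.96, adjusted p = 0.0017) and for RVE8 (log2 difference 1.46, adjusted p = 0.01), and without ILN 2 the log2 differences were 4.46 and 2.76. MLN read 1771, 3121 and 1604 and 276, 344 and 229. Both calls were lost with either MMN array left out, and both genes were chosen by the study. GI, a clock gene of the evening, had 825 and 1191 in MMN against 738, 802 and 608 in ILN (log2 difference 0.48, limma adjusted p = 0.495). Tissue was collected over 4 to 8 h after dawn on several days, and the labels give no hour for any pool, so the part of collection time was not tested. Of the 13 photosynthesis genes 1 was called (RCA, the activase of Rubisco, log2 difference 0.96, limma adjusted p = 0.0307, lost with either MMN array left out), and the median was -0.02.

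Against MLN, the other mature gland, 166 of 22746 probe sets (0.73%) were called in MMN, 130 (0.572%) higher and 36 (0.158%) lower. The MMN arrays enter both comparisons, so the values are set side by side only. Among the 97 genes named by rule 17 were called between MMN and MLN, 8 of which had been named because of this contrast. OCT1, a carnitine transporter of the organic cation family, read 1350.5 and 1241 in MMN, 35.2, 46.5 and 103 in ILN and 32.9, 36.3 and 24.1 in MLN (MMN minus ILN log2 difference 4.55, limma adjusted p = 2.36e-05; MMN minus MLN log2 difference 5.40, limma adjusted p = 7.43e-05). At1g74820 and NGA1, given above, differed from MLN by 6.05 and 4.17 on the log2 scale (limma adjusted p = 5.07e-06 and 7.96e-05). For these 3 genes ILN and MLN arrays both lay far below MMN.

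At3g17130, of the family of invertase and pectin methylesterase inhibitors, read 2007 and 1156 in MMN, 28.9, 34.9 and 52.5 in ILN and 86.4, 98.8 and 116 in MLN (MMN minus MLN log2 difference 3.93, limma adjusted p = 0.00014). CES, a bHLH transcription factor of brassinosteroid response, read 554 and 579 in MMN, 36.5, 34.8 and 30.3 in ILN and 54.6, 37.5 and 37.9 in MLN (MMN minus MLN log2 difference 3.73, limma adjusted p = 3e-05). At1g13930, an expressed protein, read 2933 and 4729.6, 217, 129.5 and 258 and 245, 235 and 342 in MMN, ILN and MLN (MMN minus MLN log2 difference 3.79, limma adjusted p = 0.000236). GA20OX1 and SWEET1 differed from MLN by 3.14 and 2.59 on the log2 scale (limma adjusted p = 0.0021 and 0.00619), and the call of SWEET1 was lost without MMN 1 (log2 difference 2.1, adjusted p = 0.0624).

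GASA4, a small secreted protein induced by gibberellin, ranked the groups differently, with 2772 and 2320.2 in MMN, 1425, 695 and 1207 in ILN and 332, 242 and 358 in MLN. Its log2 difference was 3.05 from MLN (limma adjusted p = 0.000798) and 1.26 from ILN (limma adjusted p = 0.0128), and the latter call was lost with either MMN array left out. PGIP2 was lower in MMN than in either other group, with 987, 1049.5 and 786 in MLN (log2 difference -1.49, limma adjusted p = 0.0354; log2 difference -1.22, adjusted p = 0.503 without MMN 2). JMT, whose MMN and ILN arrays overlapped, was lower in MMN than in MLN (log2 difference -2.31, limma adjusted p = 0.0127; log2 difference -1.66, adjusted p = 0.11 without MMN 1). At2g23120, without annotation, rested on MMN 2, with 599 and 7215 in MMN, 64.9, 86 and 102 in ILN and 230.1, 86.2 and 111 in MLN (MMN minus MLN log2 difference 4.00, limma adjusted p = 0.0442; log2 difference 2.2, adjusted p = 0.205 without MMN 2).

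**Figure D5:**
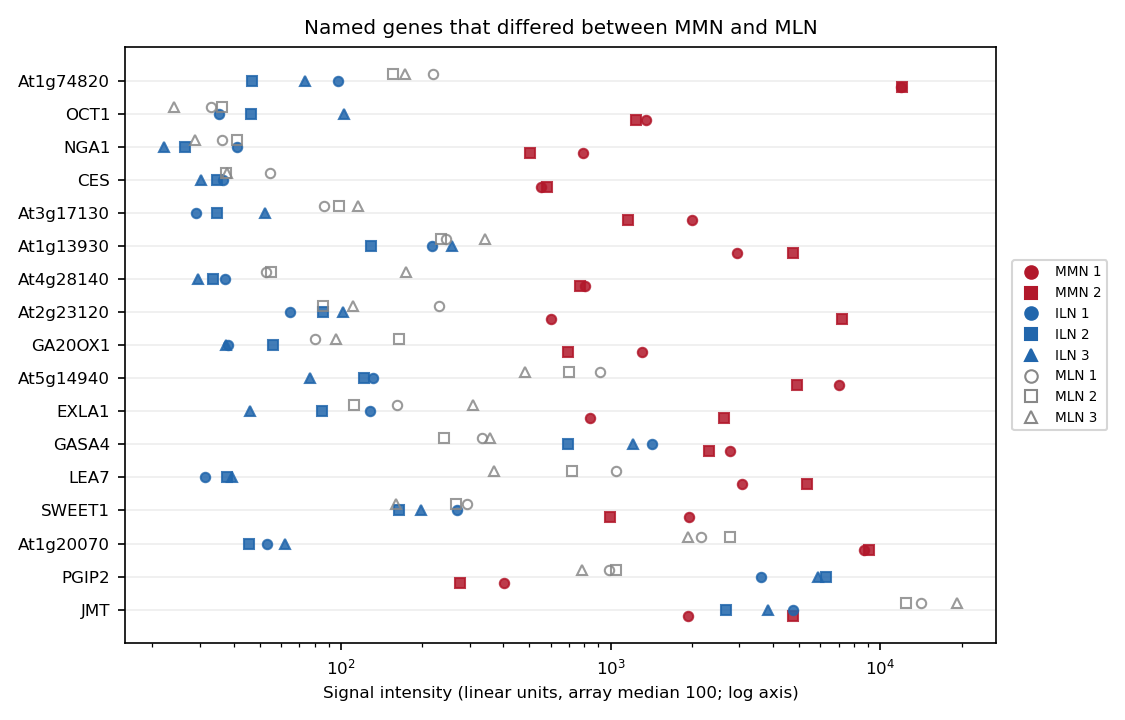
Signals on all 8 arrays, on a log axis, for the named genes that differed between MMN and MLN. Each marker is 1 array and its shape gives the replicate number. For OCT1, NGA1 and At1g74820 the red MMN markers stand to the right of both other groups, for JMT the open grey MLN markers stand to the right, and for At2g23120 the red markers are far apart, at 599 and 7215.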

How the data were processed

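RNA of 8 nectary pools (2 MMN, 3 ILN, 3 MLN) was hybridized to 8 Affymetrix ATH1 arrays. The deposited signal intensity values were made by the authors with quantile normalization and RMA, and each array was then scaled to a median of 100; the sources used here state no software version. The lowest signals were 8.30 to 9.65 and the highest 14929 to 23364. Arrays MMN 1 and MMN 2 correlated at 0.988 on the log2 scale, ILN arrays at 0.963 to 0.988, and MMN with ILN at 0.909 to 0.938. Each pool came from its own set of plants.

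The 64 control probe sets were left out and log2 signals of 22746 were fitted with limma 3.58.1 in R 4.3.3, with 1 mean per group over all 8 arrays and a variance trend; figures were drawn in Python 3.11.15 with matplotlib 3.10.9. The fit was tested on simulated data. A probe set was named where the platform annotation (13484) or the study's tables (559 from its broader tables, 242 only from lists chosen by the study) gave 1 locus, 14285 in all, while 539 had several and 7922 none. Symbols came from the TAIR10.1 reference table. Of 659 genes written into 29 lists 182 had such a probe set, and 7 more were left out because the table gives their locus another symbol.

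Genes were named only from probe sets of 1 locus, so the ranks do not cover the others. The text names the 12 largest rises and falls with arrays apart, up to 5 called members of each list with the smallest adjusted p, up to 8 genes with the largest MMN minus MLN difference among those called in both contrasts, and CRC, YAB5, SWEET9, cwINV4, SUS1, MYB24, MYB57, JMT, PIN6, GPAT5, MYB115 and BXL1. MYB21 had no probe set of 1 locus. List members that were not called, GA3, and the genes of the array gaps and the pollen list were named after their values were seen. The members and lists were chosen with earlier results of these data known. The t-test of the methods (on linear signals) was an alternative, as were an offset of 32, the 12468 brightest probe sets, quantile normalization, median centring, array weights, no variance trend, MMN and ILN fitted alone, a replicate block and each array left out. Promoter and protein sequences were not used here.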

Additional observations from a re-analysis of the deposited data

Results flagged for a closer look

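A difference between the mature glands, tested as the MMN minus MLN contrast of the same limma model, was found for 17 named genes, 8 of which had been named because of this contrast, so that the count is partly fixed by the rule. MMN was higher for 15. The log2 differences were 6.05 for At1g74820, the cupin gene, 5.40 for OCT1, the carnitine transporter gene, 4.17 for NGA1, 4.00 for At2g23120, 3.93 for At3g17130, 3.79 for At1g13930, 3.73 for CES, 3.3 for At4g28140, an AP2-domain transcription factor gene, 3.14 for GA20OX1, 3.11 for At5g14940, 3.06 for EXLA1, 3.05 for GASA4, 2.63 for LEA7, 2.59 for SWEET1 and 1.97 for At1g20070. MMN was lower for JMT, at -2.31, and for PGIP2, at -1.49. Adjusted p ran from 5.07e-06 to 0.0442.

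Some of these calls were lost with 1 MMN array left out. For EXLA1, MMN 1 and MMN 2 read 837 and 2633, and it lost its call without MMN 2 (log2 difference 2.24, adjusted p = 0.409). Without MMN 2 the calls of LEA7 (log2 difference 2.23, adjusted p = 0.169) and At4g28140 (log2 difference 3.33, adjusted p = 0.0626) were lost as well. Calls of PGIP2, EXLA1 and At2g23120 were also lost without MLN 1, MLN 2 or ILN 2, and that of JMT without MLN 1. With no variance trend PGIP2, EXLA1 and At2g23120 lost their calls too (limma adjusted p = 0.051, 0.0531 and 0.0803). The call of At2g23120 was lost as well without MLN 3, with an offset of 32 and with new quantile normalization (limma adjusted p = 0.106, 0.0612 and 0.0685). MMN holds 2 arrays, too few for a search for single outlying arrays, and ILN holds 3.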

How the results depend on the processing

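No named gene called between MMN and ILN changed sign under any alternative run, while of those not called JMT turned to 0.38 without MMN 1, cwINV4 to 0.02 without ILN 1 and SWEET9 to -0.06 to -0.17 without MMN 1, without ILN 3, with new quantile normalization and with the block on replicate number. Against 2709 probe sets at 2-fold (1326 higher and 1383 lower), leaving out each array in turn gave 1715 to 3131 (944 to 1374 higher, 771 to 1757 lower), the lowest totals of all, of rises and of falls being those without MMN 2, and rises outnumbered falls without MMN 1, MMN 2, ILN 2 or ILN 3; with 1 MMN array left, it is assumed to vary like the other groups. The methods' t-test gave 253 with Benjamini-Hochberg q (204 higher, 49 lower), 1028 with Storey q (761 and 267) and 708 falls with no adjustment. The other limma settings stayed within 1.5 times, at 2086 to 2938. The fit with a replicate block gave 2645 (1381 higher, 1264 lower, rises outnumbering falls). Same-numbered MMN and ILN arrays did not deviate together (r = -0.027 and -0.071), same-numbered MLN and ILN arrays did (r = 0.338, 0.241 and 0.211), and of the named MMN against ILN calls that of BZIP60 was lost with this replicate block. Quantile normalization moved the median over all probe sets from 0.11 to 0.01, with 1185 rises and 1468 falls. Of the 97 named genes, 16 lost their MMN against ILN call without MMN 1 and 14 without MMN 2, none with an offset of 32, 52 with Storey q and 72 with Benjamini-Hochberg q in the t-test. CCA1 was also lost without any 1 MLN array, and GH3.3, WRKY53, AUR3, BZIP60 and EIN3 each without at least 1 ILN or MLN array. The 17 MMN against MLN calls of named genes ranged from 12 to 22 with an array left out. Under the other limma settings they ranged from 14 (no variance trend) to 24 (array weights). Leaving out members the study chose moved the list calls to 27 higher and 10 lower. The cause of these changes was not tested beyond the smaller number of arrays. The number of arrays, 2 for MMN, limits the precision, and signals near the low end of the arrays hold background.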

Other observations

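Further genes, chosen after their values had been seen, extended the contrast. ELIP1, a light-stress protein of the thylakoid, read 9488 and 6434 in MMN and 116, 313 and 361 in ILN (log2 difference 5.05, limma adjusted p = 3.18e-05), and MT1C, a metallothionein, 12511 and 10604 and 641, 336 and 238 (log2 difference 4.96, limma adjusted p = 9.18e-06). ARR7, a response regulator of cytokinin signalling, rose from 82, 55.3 and 43.9 to 1903 and 1526 (log2 difference 4.87, limma adjusted p = 1.89e-06). ABCG1, an ABC transporter, rose from 259.8, 230.2 and 169 to 8056 and 7053 (log2 difference 5.12, limma adjusted p = 1.81e-06). All 4 had MMN signals above every ILN array, while the arrays of the groups did not overlap for 50.8% of all probe sets. ELIP1, ARR7 and ABCG1 were among the genes the study had chosen.

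Further falls were also chosen after their values had been seen. RPL15 and RPL4, proteins of the plastid ribosome, fell from 963, 1714 and 1814 to 201 and 154 (log2 difference -3.04, limma adjusted p = 0.00017) and from 561, 856 and 1306 to 152 and 81.2 (log2 difference -2.95, limma adjusted p = 0.000417), and At4g17560, of the ribosomal protein L19 family and 1 of the 12 largest falls, from 588, 984 and 1070.2 to 67.4 and 73.4 (log2 difference -3.60, limma adjusted p = 1.7e-05). HTB2, a histone H2B, fell from 576, 840.2 and 968 to 83.7 and 91.7 (log2 difference -3.15, limma adjusted p = 5.01e-05). HSP60, a mitochondrial chaperonin, fell from 388, 850.4 and 1147 to 81.7 and 93.3 (log2 difference -3.05, limma adjusted p = 0.000361), and DWF1, of brassinosteroid synthesis, from 1214, 2032 and 2769 to 245 and 169 (log2 difference -3.22, limma adjusted p = 5.91e-05). In each of the 6 genes ILN 1 was the lowest ILN array, as for 72.6% of all falls at 2-fold.

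Genes were also grouped by the letters of their symbols, a grouping made after the values had been seen, and 32 groups held at least 8 genes. Of serine carboxypeptidase-like genes (SCPL), 7 of 29 were called higher and 4 lower (median log2 difference 0.27). The widest rises there besides scpl41 were those of scpl48 and SCPL45 (3.62 and 2.09), and the widest falls those of scpl42 and SCPL34 (-2.55 and -2.34). Of vacuolar sorting genes (VPS), 4 of 10 were called higher and 0 lower (median log2 difference 0.44). Of trichome birefringence-like wall genes (TBL), 0 of 24 were called higher and 4 lower (median log2 difference 0.05). Of embryo-defective genes (EMB), 1 of 13 were called higher and 5 lower (median log2 difference -0.37). These 4 groups were picked for their values. Over all 486 genes of the 32 groups, 58 (11.9%) were higher and 39 (8.02%) lower, beside 9.97% and 8.86% of all probe sets.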
